A study of Mus musculus with 4 samples.

Results

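Satb1 and 9 further transcription factor genes of the T lineage (Tcf7, Lef1, Bcl11b, Ets1, Ikzf1, Runx1, Runx3, Gata3 and Bach2) were read in 4 mouse RNA-seq libraries. They are the rows of the count tables whose symbol equals one of these names, 10 of 55367 gene rows. Each library was made from polyadenylated RNA of cells that the labels describe as CD45.2+CD8+, isolated by sorting after dissociation of tumours of B16-F10, a melanoma line of C57BL/6 origin that grows under the skin of mice. The library titles give 2 groups, WT and KO, with 2 libraries each (WT 1, WT 2, KO 1 and KO 2), and WT and KO below stand for the libraries so labelled. The design text of the series names WT mice and, for the loss of Satb1, mice with a floxed gene (Satb1 F/F) carrying either ThPOK-cre or E8I-cre, and the labels do not say which of these lines stands behind KO. ThPOK-cre is used to delete floxed genes in cells committed to the CD4 lineage and E8I-cre in those committed to the CD8 lineage. The tumour cells were injected and do not descend from these mice. The study's methods describe young adult mice of both sexes. Nothing in the labels says that the libraries of a group came from separate animals, so the p-values measure the spread between these libraries.

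SATB1 is a nuclear protein that binds AT-rich DNA, folds chromatin into loops and is abundant in thymocytes and T cells. TCF-1 (encoded by Tcf7) and LEF-1 are HMG-box factors that open T cell genes and mark naive and stem-like T cells, BCL11B holds T cell identity, and GATA-3 is required for T cell development and for the CD4 lineage. ETS-1, Ikaros (Ikzf1) and the RUNX factors act at T cell enhancers but are also used in other blood lineages, RUNX3 is a factor of CD8 T cells and other cytotoxic cells, and BACH2 restrains effector programmes.

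The promoters were searched for short motifs of the factors themselves, and 2 are shown because Satb1 is the targeted gene and Runx3 held most matches. RefSeq (GRCm38.p6) start sites were at hand for 9 of the 10 genes, and the 250 bases before 1 start site of each were searched on both strands. The ETS family was searched as CCGGAA. For the RUNX factors the letters were TGTGGT, which is the core of their known site. TCF-1 and LEF-1 were represented by CTTTGA and Ikaros by its core, written as TGGGAA. The letters for the zinc fingers of GATA-3 were AGATAA. Capitals mark the matches. The Satb1 window is chr17:51833291-51833540 on the minus strand and the Runx3 window is chr4:135120395-135120644 on the plus strand.
Satb1: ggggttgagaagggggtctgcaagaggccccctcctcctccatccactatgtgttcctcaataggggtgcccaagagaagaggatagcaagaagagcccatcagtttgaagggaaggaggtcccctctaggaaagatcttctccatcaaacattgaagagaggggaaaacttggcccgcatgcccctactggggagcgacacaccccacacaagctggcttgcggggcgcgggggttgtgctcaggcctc
Runx3: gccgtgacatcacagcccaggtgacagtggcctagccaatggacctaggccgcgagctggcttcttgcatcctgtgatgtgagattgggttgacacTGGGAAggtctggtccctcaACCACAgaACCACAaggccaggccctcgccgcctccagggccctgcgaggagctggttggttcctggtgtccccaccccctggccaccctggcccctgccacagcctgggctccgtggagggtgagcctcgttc
None of the 5 motifs occurred in the Satb1 window. In the Runx3 window the RUNX motif occurred 2 times, as its reverse complement and 2 bases apart, and the Ikaros motif once. Among 32851 promoter windows of the same length, 14.1% held the RUNX motif and 1.27% held it at least 2 times, while 21.6% held the Ikaros motif. In the other windows the ETS motif occurred once each in Gata3 and Bach2 (12.0% of all windows) and the TCF/LEF motif once each in Bcl11b and Bach2 (13.8% of all windows). The GATA motif (9.99% of all windows) was not in any of the 9 windows. Not every window need be an active promoter in T cells. Those of Gata3 and Bach2 end 11434 and 178631 bases from the outermost start in GENCODE M21, and the annotated Tcf7 start may lie inside a longer transcript, so that its window may hold transcribed bases. The windows of Bcl11b and Runx1 hold annotated exon bases of these genes themselves, and the Ikzf1 start used lies 922 bases from the outermost one.

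The tables held 4017875 to 5382915 counts on genes per library, the deepest library having 1.34 times the counts of the shallowest. Levels are given as normalized CPM, counts scaled to a common library total (CPM) and corrected with TMM factors (the trimmed mean of M-values, which sets libraries level on most of their genes), and 3 counts in a library correspond to 0.521 to 0.897 normalized CPM. The sorted cell type was checked against markers. Cd8a had 24 and 28 counts in the WT libraries and 843 and 733 in the KO libraries. The 10 genes of a T cell list summed to 77.8 and 112 normalized CPM in the WT libraries and to 1402 and 1058 in the KO libraries, and 7 of them were higher in KO past the threshold. A macrophage and monocyte list of 7 genes summed to 18269 and 18565 in WT and to 4161 and 10566 in KO, and edgeR called 0 of the 7 (3 were lower at an unadjusted p under 0.05, and DESeq2 called 1, C1qa). In that list Cd68, C1qa, C1qb, Ly6c2 and Fcgr1 lay lower in both KO libraries, with C1qb holding 25171 of 61089 counts in WT 1. Csf1r (940 and 1177 normalized CPM in WT, 381 and 1219 in KO) and Adgre1 (458 and 564, 179 and 495) overlapped between the groups. The summed levels of lists for other cell types are given as ranges, with no test of the sums. They were 14.4 to 32.3 in WT and 311 to 400 in KO for 7 genes listed for dendritic cells, 216 to 237 and 1128 to 1837 for 5 melanoma genes, and 17.2 to 20.3 and 151 to 926 for 6 fibroblast and endothelial genes. In the dendritic cell list, Ccr7, which naive T cells also use, held 1363 of 2113 counts in KO 1 and 1574 of 1791 in KO 2, and Cd209a (26 and 66 counts in WT, 666 and 135 in KO) and Zbtb46 (1 and 4, 21 and 51) also stood above WT in both KO libraries, while Flt3, Xcr1, Clec9a and Siglech overlapped between the groups. In the fibroblast and endothelial list the 2 genes past the threshold were Col1a1 and Col3a1, which passed the filter on low counts through the KO libraries alone, while the endothelial Pecam1 overlapped (means of 15.4 normalized CPM in WT and 17.4 in KO) and Cdh5 had 1 and 6 counts in WT and 1 and 1 in KO. The B cell list (4 genes, Pax5 at 0 in all libraries, Cd79b holding 61 of 64 and 182 of 182 counts in WT, and Cd79a at 0 in WT with 7 and 3 counts in KO) stood at 19.1 to 44.8 and 3.98 to 13.9, the NK and innate lymphoid list (4 genes) at 0 to 2.71 and 6.08 to 24.6, and the list for CD4 or regulatory T cells (4 genes) at 48.7 to 54.2 and 94.6 to 134. Within the last list Foxp3 lay the other way, with 43.7 and 38.4 normalized CPM in WT and 22.7 and 22.9 in KO (adjusted p = 0.431, edgeR). A neutrophil list of 3 genes stood at 115 to 153 and 46.8 to 89.8, nearly all of it Csf3r (501 of 510 counts in WT 1 and 507 of 517 in KO 2), and an erythroid list of 3 genes at 0.493 to 5.68 and 0 to 27.6. Xist had 435 and 216 counts in WT and 0 and 3 in KO, and 4 Y-linked genes summed to 0 and 0 in WT and 416 and 255 in KO, so sex and group cannot be told apart. The part of these differences in the results below was not tested. In such bulk libraries, fewer cells of a type and less RNA per cell cannot be told apart.

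The targeted gene was not lower in the libraries labelled KO. Satb1 (17:51736187-51833290, minus strand, GRCm38/mm10) had 7 and 5 counts in the WT libraries and 131 and 55 in the KO libraries, in the order of their numbers. These are 2.09, 1.23, 24.8 and 9.55 normalized CPM, so both KO libraries stood above both WT libraries, and KO 1 was the highest. The means were 1.66 ± 0.609 in WT and 17.2 ± 10.8 in KO (SD, n = 2 each), 10.3 times higher in KO, and the pooled counts gave a ratio of 10.4 with an exact counting interval of 5.81 to 20.5 (95%). KO exceeded WT by a log2 fold change of 3.36 (SE 0.79, 95% interval 1.59 to 5.13). With an adjusted p of 0.115 (edgeR quasi-likelihood F test, Benjamini-Hochberg over all genes) it did not pass the threshold of 0.05, and Satb1 ranked 196th of 11837 genes by p. With 1 library left out the log2 fold change ranged from 2.51 (without KO 1, adjusted p = 0.221) to 3.86 (without KO 2, adjusted p = 0.00942), and the last of these fits alone passed in edgeR. In every fit with a library left out, here and below, 1 group is a single library, which is assumed to vary like the pair in the other group. Without KO 2 that fit called 725 genes higher and 524 lower. The tables count whole genes and the labels do not give the floxed exons, so these counts do not check the deletion itself. The counts of the CD8 and CD3 genes in the WT libraries were low for the label of the sort. For Satb1 the labels set no direction, because the Cre line behind KO is not given and ThPOK-cre acts in CD4-committed cells. Whether libraries or sort gates were exchanged was not tested, and every direction given here rests on the library titles. With 2 libraries on each side, the smallest p of an exact permutation test is 0.333. Satb1 passed the filter on low counts through the KO libraries alone, so its tests are a description.

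**Figure D1:**
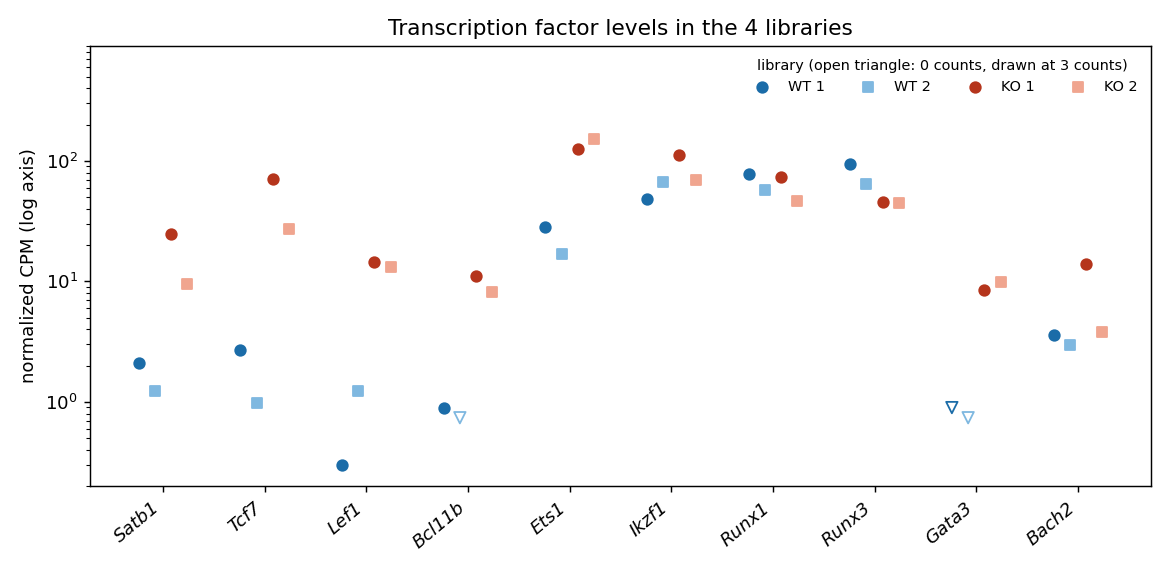
Normalized CPM (log axis) of the 10 genes in the 4 libraries, 1 point per library. Open triangles stand for 0 counts and are drawn at the level of 3 counts. For Satb1, Tcf7, Lef1 and Gata3 both KO libraries lie well above both WT libraries, while the points of Runx1 mix and both KO points of Runx3 (45.2 and 45.0) lie below those of WT.

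Of the 10 genes, 8 had a higher fitted level in KO and 2 a lower one, against 6227 higher and 5610 lower among all 11837 genes tested. Tcf7 was the 1 that passed the threshold upward, where 0.549% of all 11837 genes tested did, and none passed downward, where 0.0253% of all genes did. At an unadjusted p under 0.05, edgeR called 6 of the 10 upward (9.44% of all genes) and 0 downward (4.23% of all genes), and DESeq2 called 6 upward (2.96% of all genes) and 0 downward (0.558% of all genes) at its adjusted p. In 8 of the 10, both KO libraries lay above both WT libraries, as in 25.3% of all genes, and in 1 of the 10 both lay below, as in 22.6%. The median log2 fold change was 2.99 over the 10 genes and 0.05 over all genes tested. All 10 genes passed the filter on low counts, but Satb1, Tcf7, Lef1, Bcl11b and Gata3, with under 10 counts in each WT library, did so through the KO libraries alone, so the counts and the median over the 10 genes are a description.

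**Figure D2:**
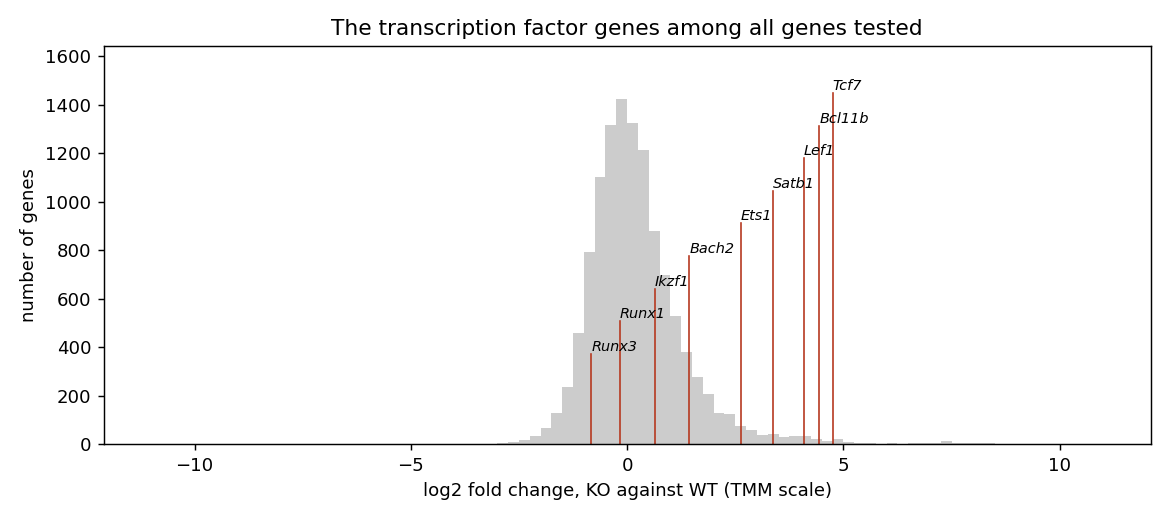
Number of genes (y axis) by log2 fold change from WT to KO (x axis, TMM scale) for the 11837 genes tested, with 9 of the 10 genes marked by lines. Gata3 is left out because it had no counts in WT. Runx3, Runx1 and Ikzf1 sit within the bulk of the distribution, Runx1 at -0.16 (0.20 with plain CPM), and Ets1, Satb1, Lef1, Bcl11b and Tcf7 sit in its upper tail.

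Tcf7 and Lef1, which encode the HMG-box factors that also relay Wnt signals through beta-catenin, were nearly absent from the WT libraries. Tcf7 (11:52252371-52283014, minus strand) had 9 and 4 counts in WT and 376 and 156 in KO, or 2.69, 0.986, 71.2 and 27.1 normalized CPM. The groups did not overlap, and KO 1 was the highest library. Tcf7 rose by a log2 fold change of 4.75 (SE 0.75, adjusted p = 0.0317, edgeR), and it passed under all 15 other settings tried (other scalings, filters and tools, and each library left out), with log2 fold changes from 3.89 (without KO 1) to 5.53 (without WT 1). With 9 and 4 counts in WT, it was tested because the KO libraries, where it is high, passed the filter on low counts, and its place among the 10 is a description. Lef1 (3:131110471-131224356, plus strand) had 1, 5, 76 and 76 counts, or 0.299, 1.23, 14.4 and 13.2 normalized CPM, and its KO libraries were nearly equal. Like Tcf7, it passed the filter on low counts through the KO libraries alone, so its calls are a description. Its log2 fold change was 4.08 (SE 0.86, adjusted p = 0.0778, edgeR), and it passed without WT 2 (5.36, adjusted p = 0.0292) and without KO 2 (4.09, adjusted p = 0.0264) but not without WT 1 (3.40, adjusted p = 0.255) or without KO 1 (adjusted p = 0.0891). Exons of the noncoding Gm43352 on the other strand overlap 13.8% of the exonic bases of Lef1, and the strand setting of the counting was not given in the sources used here.

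Bcl11b and Gata3, the zinc finger factors of T cell commitment, were at or near 0 in WT. Both were tested because the KO libraries, where they are high, passed the filter on low counts, so their calls are a description. Bcl11b (12:107910403-108003602, minus strand) had 3, 0, 59 and 47 counts, or 0.897, 0, 11.2 and 8.16 normalized CPM. The pooled counts of KO were 23.7 times those of WT, with an exact interval of 7.89 to 117 that covers counting error only. Its log2 fold change was 4.44 (SE 1.14, adjusted p = 0.144, edgeR), and it passed without WT 1, the WT library that held the 3 counts (adjusted p = 0.0308, with no fold given since WT 2 had 0 counts), and without KO 2 (4.61, adjusted p = 0.0439), but not without WT 2 (3.34, adjusted p = 0.283) or without KO 1 (4.19, adjusted p = 0.175). Gata3 (2:9857078-9890034, minus strand) had no counts in either WT library and 45 and 57 in KO 1 and KO 2, or 8.52 and 9.90 normalized CPM. Against 3 counts in each WT library its mean was at least 11.3-fold higher in KO. Its adjusted p was 0.0535 (edgeR), just over the threshold, and it fell below it without WT 1 (0.0365), without WT 2 (0.0336) and without KO 2 (0.0268) but not without KO 1 (0.0560). Exons of Gm13256 on the other strand overlap 3.90% of the exonic bases of Gata3.

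Ets1, the founding member of the ETS family, was well covered in all libraries. Ets1 (9:32636221-32757820, plus strand) had 94, 69, 666 and 877 counts, or 28.1, 17.0, 126 and 152 normalized CPM. The means were 22.6 ± 7.85 in WT and 139 ± 18.5 in KO (SD, n = 2 each), a difference of 6.17 times that exceeds the spread of either group. The log2 fold change was 2.63 (SE 0.47) with an adjusted p of 0.0510 (edgeR). It passed without KO 1 (2.75, adjusted p = 0.00925) and without KO 2 (2.45, adjusted p = 0.00639) but not without WT 1 (2.98, adjusted p = 0.187) or without WT 2 (2.26, adjusted p = 0.295).

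Bach2, a repressor with a leucine zipper, was low throughout and uneven within KO. It (4:32238804-32586108, plus strand) had 12, 12, 74 and 22 counts, or 3.59, 2.96, 14.0 and 3.82 normalized CPM, so KO 2 stood next to the WT libraries and KO 1 apart from them. The log2 fold change was 1.44 (SE 0.83, adjusted p = 0.474, edgeR) and was 0.22 without KO 1. Its antisense gene Bach2os overlaps 5.40% of its exonic bases.

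Ikzf1, Runx1 and Runx3 had the smallest differences and none passed. Ikzf1 (11:11685003-11772926, plus strand), which encodes Ikaros, had 160, 273, 586 and 397 counts, or 47.8, 67.3, 111 and 68.9 normalized CPM, so that KO 2 lay just above WT 2. Its log2 fold change was 0.64 (SE 0.45, 95% interval -0.37 to 1.66, adjusted p = 0.552, edgeR). Runx1 (16:92601466-92826149, minus strand), a factor of early haematopoiesis and of T cells, had 258, 231, 385 and 270 counts, or 77.2, 56.9, 72.9 and 46.9 normalized CPM. The groups overlapped, and the log2 fold change of -0.16 (SE 0.45, 95% interval -1.17 to 0.84, adjusted p = 0.902, edgeR) changed sign with plain CPM, without WT 1 and without KO 2 (0.20, 0.0073 and 0.0856).

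Runx3 was the 1 gene of the 10 with both KO libraries below both WT libraries. Runx3 (4:135120652-135177990, plus strand), with the tandem RUNX motif printed above, had 318, 263, 239 and 259 counts, or 95.1, 64.8, 45.2 and 45.0 normalized CPM. The means were 80.0 ± 21.4 in WT and 45.1 ± 0.193 in KO (SD, n = 2 each), 1.77 times higher in WT. The log2 fold change was -0.82 (SE 0.43, 95% interval -1.80 to 0.15) and did not pass (adjusted p = 0.436, edgeR), with the same sign under all 15 other settings.

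Levels of different genes were compared per kilobase of annotated exon. In the WT libraries Runx3 led with 16.0 ± 4.28 normalized CPM per kilobase, followed by Ikzf1 (9.96 ± 2.38), Runx1 (5.57 ± 1.19) and Ets1 (2.66 ± 0.927), and the libraries of these neighbours did not overlap. Tcf7 (0.700 ± 0.460) and Bach2 (0.329 ± 0.0449) came next. Satb1 (0.0874 ± 0.0320), Lef1 (0.0871 ± 0.0751) and Bcl11b (0.0553 ± 0.0782) did not differ from one another beyond their spread, and Gata3 was at 0 (SD, n = 2 for each). In the KO libraries Tcf7 (18.7 ± 11.9), Ets1 (16.4 ± 2.19) and Ikzf1 (15.6 ± 5.14) led and overlapped. Runx3 (9.02 ± 0.0386), Runx1 (4.98 ± 1.53), Gata3 (2.31 ± 0.245) and Lef1 (1.57 ± 0.0958) followed without overlap between neighbours. Bcl11b (1.19 ± 0.262), Satb1 (0.903 ± 0.567) and Bach2 (0.897 ± 0.725) closed the order, and their libraries overlapped. With the length of the longest transcript in place of the union of exons, Runx1 and Ikzf1 exchanged places in WT, as did Ets1 with Tcf7, Gata3 with Lef1, and Bcl11b with Satb1 in KO.

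**Figure D3:**
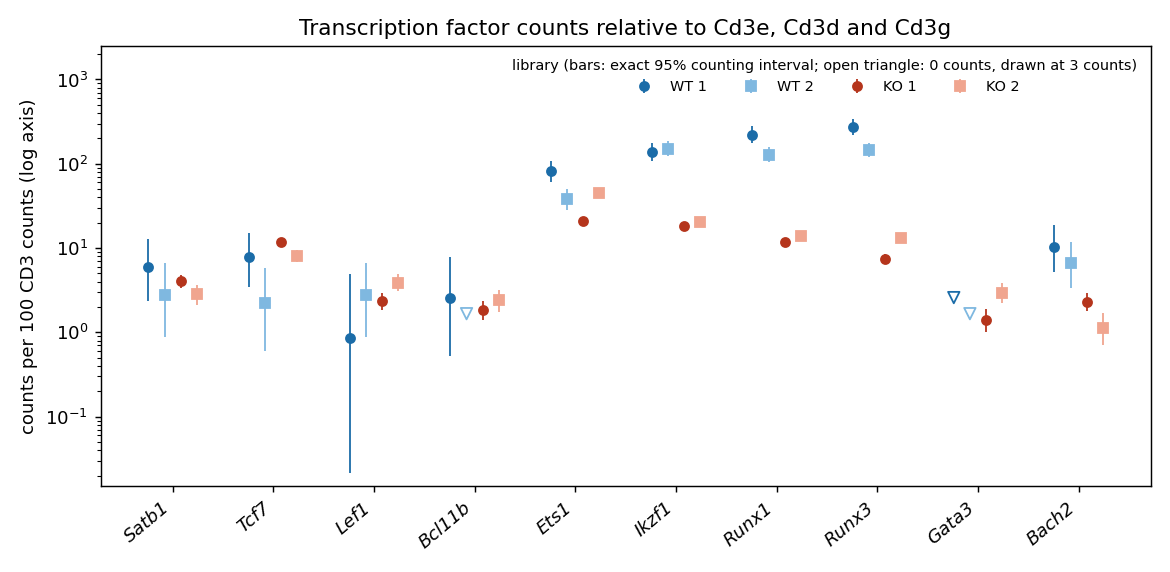
Counts of the 10 genes per 100 counts of Cd3e, Cd3d and Cd3g (log axis), 1 point per library, with exact 95% counting intervals. Open triangles mark 0 counts and are drawn at 3 counts. Satb1 lies between 2.78 and 6.03 in all 4 libraries, while the WT points of Ikzf1, Runx1 and Runx3 all lie above 100 and the KO points all lie under 21.

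A second scale asked how much of each transcript there was for a given amount of CD3 transcript. CD3, the signalling part of the T cell receptor, had 116, 180, 3220 and 1950 summed counts of Cd3e, Cd3d and Cd3g in the 4 libraries, and its mean normalized CPM was 12.0 times higher in KO. On this scale Satb1 had 6.03 counts per 100 CD3 counts in WT 1 (exact interval 2.37 to 12.8), 2.78 in WT 2 (0.891 to 6.60), 4.07 in KO 1 (3.39 to 4.85) and 2.82 in KO 2 (2.12 to 3.69). The groups overlapped, with means of 4.41 ± 2.30 in WT and 3.44 ± 0.882 in KO (SD, n = 2 each). An edgeR fit with libraries scaled to their CD3 counts gave a log2 fold change of -0.31 (SE 0.96, 95% interval -2.28 to 1.65, adjusted p = 0.752), which turned to 0.31 without WT 1. The interval is wide on both sides of 0, and the counting error of the CD3 denominator is not in that model.

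The HMG-box genes, Bcl11b and Ets1 gave no call on the CD3 scale. Tcf7 had 7.76, 2.22, 11.7 and 8 counts per 100 CD3 counts in the 4 libraries, both KO libraries being higher but WT 1 and KO 2 nearly equal (log2 fold change 1.04, SE 0.85, adjusted p = 0.242, edgeR). Over 8 other settings the log2 fold change of Tcf7 ranged from 0.34 to 2.14. Lef1 had 0.862, 2.78, 2.36 and 3.90 and Bcl11b 2.59, 0, 1.83 and 2.41, and both overlapped between the groups (log2 fold changes 0.69 and 0.92, adjusted p = 0.540 and 0.513, edgeR). Without WT 2 the Bcl11b value turned to -0.29. The Lef1 value was 0.17 without WT 1 and 1.85 without WT 2. Ets1 had 81.0, 38.3, 20.7 and 45.0, again overlapping (log2 fold change -0.86, SE 0.71, adjusted p = 0.246, edgeR). Its log2 fold change was -1.52 without KO 2, -1.30 without WT 2, -0.40 without KO 1 and -0.22 without WT 1.

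Ikzf1, Runx1 and Runx3 had more counts than CD3 itself in the WT libraries and far fewer in KO. Per 100 CD3 counts, Ikzf1 had 138 and 152 in WT and 18.2 and 20.4 in KO. Runx1 had 222 and 128 in WT against 12.0 and 13.8 in KO. Runx3 had 274 and 146 in WT against 7.42 and 13.3 in KO, a difference of 20.3 times between the means. All 3 fell on this scale, with log2 fold changes of -2.91 (SE 0.74), -3.76 (SE 0.79) and -4.34 (SE 0.83) and adjusted p of 0.000878, 0.000213 and 0.000146 (edgeR), where 91.2% of all genes tested were called lower. They passed under all 8 other settings tried, each of which also scaled libraries by CD3 or T cell counts. Bach2, with 10.3, 6.67, 2.30 and 1.13, also fell (log2 fold change -2.28, SE 0.93, adjusted p = 0.0231, edgeR), but did not pass without WT 1 (adjusted p = 0.137) or without KO 2 (adjusted p = 0.103). The sum of the macrophage and monocyte list given above was also higher in both WT libraries, though its Csf1r and Adgre1 overlapped. The part of that list was not tested.

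These 4 genes of 10 fell on a scale on which 91.2% of all genes tested were called lower in KO. The median log2 fold change was -0.59 over the 10 genes and -3.43 over all genes, so Ikzf1, Runx1 and Runx3 lay near the median gene and the remaining genes above it. Upward, the fit put 1 of the 10 past the threshold (0.304% of all genes), which was Gata3, and nothing is read from that call. Gata3 had no counts in WT and passed the filter on low counts through the KO libraries alone. It had 1.40 and 2.92 counts per 100 CD3 counts in KO and 0 in WT, where 3 counts would be 2.59 and 1.67, so no fold is given, and the call (adjusted p = 0.0275, edgeR) was lost when any 1 library was left out (adjusted p from 0.0501 to 0.160).

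**Figure D4:**
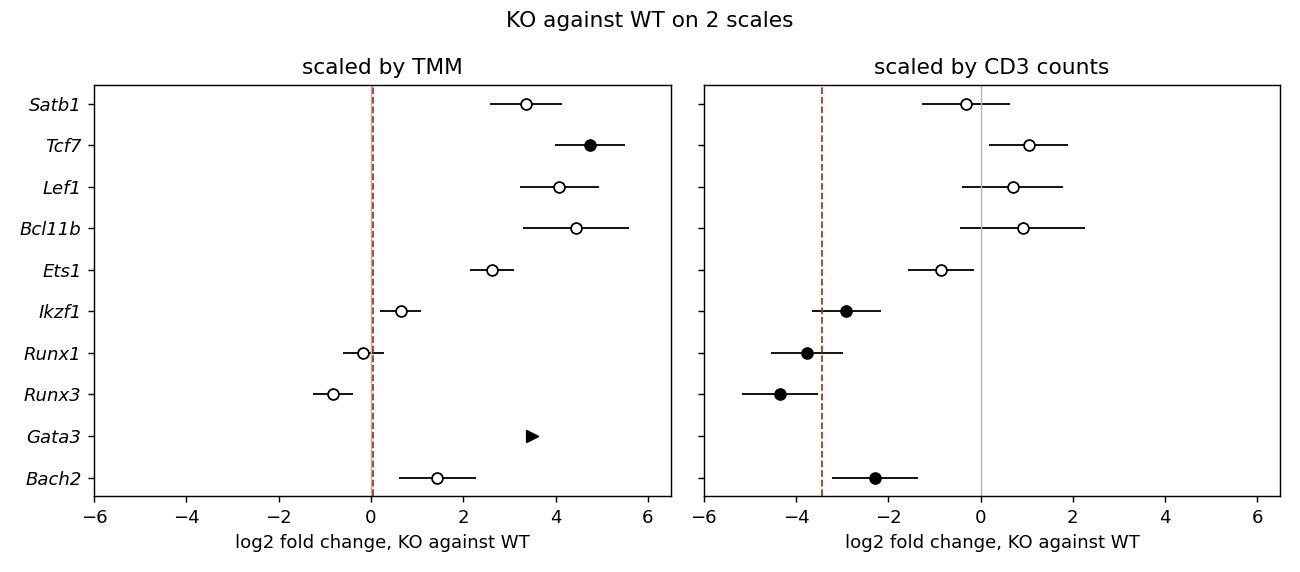
Log2 fold change of KO against WT (x axis) with its SE (bars) for each gene, with libraries scaled by TMM (left) and by CD3 counts (right). Filled points passed an adjusted p of 0.05, the dashed line is the median of all genes tested (0.05 and -3.43), and the triangle is the lower bound for Gata3, which is not drawn on the right. Satb1, Tcf7, Lef1 and Bcl11b lie at 3.36 to 4.75 on the left and at -0.31 to 1.04, with no call, on the right, while Runx1 (0.20 with plain CPM) and Runx3 lie near or below the median on both.

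The other members of the same gene families gave no call in the edgeR quasi-likelihood fit. Of 12 paralogs 7 could be tested and 0 passed in either direction, with 2 higher and 1 lower at an unadjusted p under 0.05, while DESeq2 called 1 of them, Ikzf3, and the edgeR likelihood ratio test called 2, Ikzf2 and Ikzf3. Both genes were tested because the KO libraries, where they are high, passed the filter on low counts, so these calls are a description. Ikzf3, which encodes Aiolos, a partner of Ikaros in lymphocytes, had 3, 3, 75 and 79 counts in the same order of libraries (log2 fold change 4.06, SE 0.78, adjusted p = 0.0582, edgeR), and its adjusted p was 0.0226 without KO 2 and over 0.05 when any other library was left out. Ikzf2, which encodes Helios, had 2, 5, 89 and 16 counts (3.36, SE 1.08, adjusted p = 0.230, edgeR), with 4.10 and 0.0169 without KO 2 and 1.55 and 0.646 without KO 1. Both thus stood higher in both KO libraries, Ikzf2 by little in KO 2. Tcf7l2, the TCF family member used in many tissues outside T cells and chosen here after its values were seen, went the other way with 214, 281, 111 and 203 counts (-1.24, SE 0.46, adjusted p = 0.288, edgeR). Without KO 2 it passed, with a log2 fold change of -1.70 and an adjusted p of 0.0350. Tcf7l1, Bcl11a, Ikzf4, Gata1 and Gata2 were too low to be tested.

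**Figure D5:**
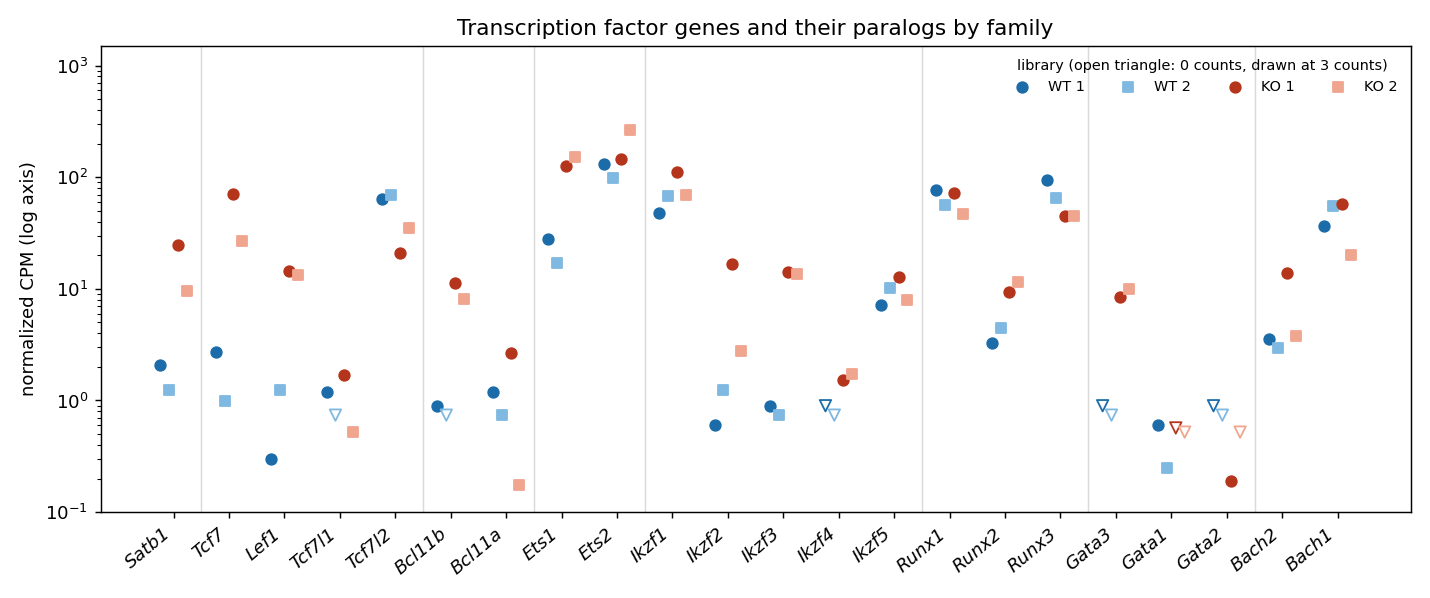
Normalized CPM (log axis) of the 10 genes and 12 paralogs in the 4 libraries, with families set apart by vertical lines. Open triangles stand for 0 counts and are drawn at 3 counts. Tcf7 and Lef1 are high in KO where Tcf7l2 is lower, and Ikzf3 is high in both KO libraries and Ikzf2 mainly in KO 1 (16.8 normalized CPM, against 2.78 in KO 2).

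Proteins that work with these factors, such as the histone deacetylase HDAC1 and the chromatin remodeller SMARCA5 for SATB1, beta-catenin and the TLE corepressors for TCF-1 and LEF-1, and CBF-beta for the RUNX factors, did not pass in the quasi-likelihood fit either. None of 12 genes did (2 were higher at an unadjusted p under 0.05, and DESeq2 and the edgeR likelihood ratio test each called 1, Smarca5), and their median log2 fold change was 0.14. The largest differences were those of Smarca5, with 23, 78, 558 and 222 counts (2.45, SE 0.66, adjusted p = 0.164), and of Baz1a, which encodes another remodelling subunit, with 34, 77, 453 and 144 counts (1.92, SE 0.65, adjusted p = 0.248). The log2 fold change of Smarca5 was 1.54 without KO 1, 2.96 without KO 2, 1.83 without WT 1 and 3.32 without WT 2. That of Baz1a was 0.77, 2.51, 1.46 and 2.37 in the same order.

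Among 20 further transcription factors of T lymphocytes 19 were tested, 1 passed upward and 0 downward by edgeR (3 and 1 at an unadjusted p under 0.05, 1 and 1 by DESeq2, and 2 and 1 by the edgeR likelihood ratio test, which added Gfi1 with 0 and 2 counts in WT and 36 and 22 in KO), and the median log2 fold change was 0.19. Myb, a factor of proliferating progenitors and of stem-like T cells, had 1, 0, 116 and 51 counts, and the pooled ratio of 112 had an exact interval of 19.8 to 4448. The log2 fold change of Myb was 6.55 (SE 1.16), and 5.74 without KO 1, 7.02 without KO 2 and 5.50 without WT 2. No fold is given without WT 1, since WT 2 had 0 counts. Like Gfi1, Myb was tested because the KO libraries, where both are high, passed the filter on low counts. Its adjusted p was 0.0485 (edgeR) and 0.0919 without KO 1, and it lay between 0.0506 and 0.0566 with 2 other scalings and a stricter filter. Zbtb7b, which encodes ThPOK, the factor of the CD4 lineage, and was named after its values were seen, was called lower by DESeq2 (adjusted p = 0.0451). It had 360 and 218 counts in WT and 128 and 141 in KO, both KO libraries standing below both WT libraries (log2 fold change -1.73, SE 0.49, adjusted p = 0.177, edgeR), and it passed in edgeR without KO 2 (-1.77, adjusted p = 0.0493).

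The genes whose levels across the 4 libraries were nearest to those of Satb1 were Inpp4b, Pde4d, Shcbp1, Nkap and Psip1. Likeness was the Euclidean distance between log2(normalized CPM + 1) values centred on their mean over the 4 libraries, among 10056 genes with a mean of at least 5 normalized CPM, and it was 0.163, 0.214, 0.243, 0.292 and 0.343 in that order. Inpp4b, a lipid phosphatase gene, had 5, 3, 118 and 46 counts, against 7, 5, 131 and 55 for Satb1. Of the other 9 genes Bcl11b was the nearest (0.757, rank 46), followed by Ets1 (1.12, rank 167), Lef1 (1.30, rank 277) and Tcf7 (1.44, rank 379), and Runx3 was the farthest (3.55, rank 8013). Gata3 stood at 1.30 and had no rank because its mean was under that minimum. With 4 libraries in 2 groups, this order rests on few points and is a description.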

How the data were processed

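The authors deposited raw read counts per gene, 1 table per library. The submitters' processing notes name HISAT2 2.1.0, the mouse genome mm10 and HTSeq 0.11.0, and the labels name an NEBNext Ultra II RNA kit on purified mRNA. The annotation, the strand setting and any trimming are not given in the sources used here. HTSeq's summary rows (71.2% to 79.5% of each table) were left out. Of 55367 symbols 53365 (96.4%) matched GENCODE M21, including all 10 members.

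Counts were fitted with edgeR 4.0.16 in R 4.3.3 (filterByExpr, TMM factors, group as the only term, quasi-likelihood F test, two-sided, Benjamini-Hochberg over 11837 genes, threshold 0.05). The SE is the log2 fold change divided by the square root of F. A second fit set library sizes in proportion to the summed Cd3e, Cd3d and Cd3g counts. Intervals of ratios are exact and, like limits from 3 counts, hold for counting error alone, because the reads carry no molecular identifiers and may repeat a molecule. No pair of libraries agreed within sampling noise (chi-square per degree of freedom at least 27.2). Scripts were tested on simulated data. The text names all 10 members, the genes of each list that passed or else the 2 with the largest fold change, the 5 genes nearest to Satb1, and any gene said to be chosen later. Single marker genes were named after their values were seen. Members and lists were chosen with earlier results of these data known, and 2 listed genes that are no members are not reported here. Alternatives were other factors, filters, tools (DESeq2 1.42.0, likelihood ratio test), prior count 2, thinned counts, other CD3 denominators, a replicate block and each library left out. Plots used matplotlib 3.10.9.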

Additional observations from a re-analysis of the deposited data

How the results depend on the processing

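Members called higher in KO numbered 1 in the reported fit and 3 with plain CPM, 3 with thinned counts, and 6 each with no filter on low counts, DESeq2 and the likelihood ratio test. With 1 library left out they numbered 2 to 6. The 6 were Satb1, Tcf7, Lef1, Bcl11b, Ets1 and Gata3 in each of these fits, and no member was called lower under any of the 15 settings. For Satb1 the log2 fold change was 3.32 with no filter (adjusted p = 0.00287), 3.37 with DESeq2 (adjusted p = 0.00781) and 3.36 with the edgeR likelihood ratio test (adjusted p = 0.00321), and from 2.51 to 3.86 with 1 library left out (adjusted p from 0.00942 to 0.221, edgeR). The cause was not tested. Over all genes, 65 were called higher and 3 lower in the reported fit, against 133 and 3 with plain CPM, 505 and 78 with no filter, 350 and 66 with DESeq2, 476 and 80 with the likelihood ratio test, 84 and 3 with thinned counts, and 99 to 725 and 7 to 524 with 1 library left out, the most without KO 2. Plain CPM moved the median log2 fold change of all genes from 0.05 to 0.38, no filter moved it to 0.24, and Runx1 turned to 0.20 with plain CPM. Runx1 ranged from -0.52 to 0.0856 with 1 library left out, Bcl11b per CD3 count from -0.29 to 8.24 (the last a fitted value against a lone WT library at 0 counts, and no estimate of a fold) and Satb1 per CD3 count from -0.81 to 0.31. Per CD3 count, members called higher numbered 0 whenever 1 library was left out, against 1 in the reported fit, and Ikzf1, Runx1 and Runx3 were called lower in all 8 settings. Depth limits the WT values of Satb1, Tcf7, Lef1, Bcl11b and Gata3, which rest on at most 9 counts per library.

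The labels number the libraries 1 and 2 in both groups but do not say that a number marks a shared animal or day, and the deviations of same-numbered libraries had a correlation of -0.19 over 11837 genes. With the replicate number as a replicate block, 6 members were called higher and 0 lower, Satb1 had a log2 fold change of 3.25 (adjusted p = 0.0435, edgeR), all genes gave 201 higher and 14 lower, and per CD3 count 0 members were called higher and 4 lower (18 and 10377 of all 11837 genes). A crossed replicate block, chosen after seeing the data, called 6 members and 535 genes higher and 112 genes lower, with a log2 fold change of 3.23 for Satb1 (adjusted p = 0.00519).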

Other observations

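Ratios of counts between members of the same library do not depend on library size. Runx3 had 1.23 and 1.14 counts per count of Runx1 in WT 1 and WT 2 and 0.621 and 0.959 in KO 1 and KO 2. The exact intervals lay above 1 in WT 1 (1.04 to 1.46) and below 1 in KO 1 (0.526 to 0.731). They included 1 in WT 2 (0.950 to 1.36) and in KO 2 (0.806 to 1.14). Counts are not scaled for gene length here, so a ratio of 1 does not mark equal levels. Ets1 had 0.364 and 0.299 counts per count of Runx1 in WT and 1.73 and 3.25 in KO. Tcf7 had 0.0421 and 0.0142 counts per count of Tcf7l2 in WT and 3.39 and 0.768 in KO. Satb1 had 0.348 and 0.353 counts per count of Tcf7 in KO 1 and KO 2, a close match between libraries whose Satb1 counts were 131 and 55. In WT 1 and WT 2 the same ratio was 0.778 and 1.25, with exact intervals of 0.246 to 2.35 and 0.269 to 6.30 that reflect at most 9 counts of either gene. Lef1 against Tcf7 was less even, with 0.202 in KO 1 and 0.487 in KO 2, whose exact intervals (0.156 to 0.259 and 0.365 to 0.645) did not overlap. These ratios were not tested between the groups.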
